A study of Mus musculus with 4 samples.

Results

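Regulators of G protein signalling (RGS proteins) were followed in sorted splenic B cells through 8 genes, Rgs1, Rgs2, Rgs3, Rgs10, Rgs14, Rgs16, Rgs18 and Rgs19, picked by symbol out of the 37646 genes listed in the count tables. All 8 were found. RNA had been selected on its poly(A) tails and sequenced as single reads of 50 nt, in 4 libraries of 1 group, numbered 1 to 4 with no order implied. The mice were C57BL/6 of genotype YFPstopF/+; Cg1Cre/+, which means that a Cre recombinase expressed from the Ighg1 (Cg1) locus had removed a stop cassette in front of a YFP reporter. They served as normal controls in a lymphoma study. Sheep red blood cells had been injected into the peritoneum on 2 occasions 20 days apart, and spleens were collected 10 days after the later injection. Living cells positive for YFP and for B220, a CD45 variant found on B cells, were sorted, and the labels call them germinal centre (GC) B cells. Because the reporter stays on once Cre has acted, memory and plasma cells derived from such cells can carry it too. The labels give no ages. Nor do they tell whether the libraries stand for separate animals, so p-values measure only the spread between these samples, which may be partly technical. Library 3 differed from the others in sex-linked RNA, as given below, so it cannot come from the same animal as they do. Whether libraries 1, 2 and 4 share an animal is not known.

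A receptor coupled to a G protein loads the Gα subunit with GTP, and signalling lasts until Gα has hydrolysed it. RGS proteins bind the loaded Gα through a shared RGS domain, speed up that hydrolysis and so shorten the signal. In B cells the receptors in question include the chemokine receptors CXCR4, CXCR5 and CCR7 and the sphingosine phosphate receptors, which place cells within follicles, and RGS proteins are known for limiting chemotaxis towards their ligands. By sequence, Rgs1, Rgs2, Rgs3, Rgs16 and Rgs18 belong to one subfamily of mostly short proteins, Rgs10 and Rgs14 to another, and Rgs19 to another still.

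Rgs2, Rgs1, Rgs18 and Rgs16 lie on chromosome 1 (mm10). Rgs2 (143999338 to 144004161, minus strand) is followed by Rgs1 (144242296 to 144249242, minus strand) after 238 kb and by Rgs18 (144752683 to 144775435, minus strand) after a further 503 kb, whereas Rgs16 (153740349 to 153745468, plus strand) lies 8965 kb beyond Rgs18. The other members are spread over the genome: Rgs19 on chromosome 2 (181688419 to 181693977, minus strand), Rgs3 on chromosome 4 (62559847 to 62704001, plus strand), Rgs10 on chromosome 7 (128373621 to 128418758, minus strand) and Rgs14 on chromosome 13 (55369732 to 55384687, plus strand). Exons of Rgs16 shared 10.1% of their bases with the antisense gene Gm28513, which held at most 1 count in a library. No other member shared exon bases with another annotated gene.

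Promoter sequence from RefSeq (build GRCm38.p6) matched 5 of the 8 members, all but Rgs1, Rgs14 and Rgs18. The 250 bases before the start are shown for a high member (Rgs2), for the member next to it in mean TPM (Rgs19) and for a pair of low ones (Rgs16 and Rgs3, at the first of 2 starts listed for Rgs3), to set their base composition side by side. The windows are chr1:144004150-144004399 (minus strand), chr2:181693978-181694227 (minus strand, the first of 3 starts listed), chr1:153740103-153740352 (plus strand) and chr4:62559597-62559846 (plus strand). Capitals mark the cAMP response element core TGACG or CGTCA and the TATA motif TATAAA or TTTATA, on either strand. The full cAMP response element TGACGTCA, which would contain the core, the AP-1 motif TGANTCA and the E-box CANNTG were searched as well and are not capitalised.
Rgs2: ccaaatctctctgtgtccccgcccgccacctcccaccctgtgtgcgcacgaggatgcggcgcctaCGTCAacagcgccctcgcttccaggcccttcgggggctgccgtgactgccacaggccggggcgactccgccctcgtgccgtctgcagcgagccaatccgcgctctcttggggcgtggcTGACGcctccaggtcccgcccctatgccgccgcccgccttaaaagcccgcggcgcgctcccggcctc
Rgs19: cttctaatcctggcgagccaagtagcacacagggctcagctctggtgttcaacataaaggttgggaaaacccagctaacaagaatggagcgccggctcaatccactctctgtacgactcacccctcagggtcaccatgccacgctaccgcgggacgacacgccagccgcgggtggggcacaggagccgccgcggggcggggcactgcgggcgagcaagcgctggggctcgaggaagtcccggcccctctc
Rgs16: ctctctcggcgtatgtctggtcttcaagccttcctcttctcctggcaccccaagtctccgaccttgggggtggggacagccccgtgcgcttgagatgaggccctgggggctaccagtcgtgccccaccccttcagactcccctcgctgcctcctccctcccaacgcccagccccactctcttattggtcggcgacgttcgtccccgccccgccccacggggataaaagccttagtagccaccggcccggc
Rgs3: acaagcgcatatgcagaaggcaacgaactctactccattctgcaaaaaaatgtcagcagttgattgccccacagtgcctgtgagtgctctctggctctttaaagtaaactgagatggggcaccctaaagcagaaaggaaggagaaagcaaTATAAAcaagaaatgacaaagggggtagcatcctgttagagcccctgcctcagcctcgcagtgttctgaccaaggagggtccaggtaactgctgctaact
The Rgs2 window was 72.4% G and C with 30 CpG dinucleotides, the Rgs19 window 64.8% with 20 and the Rgs16 window 66.4% with 17, whereas the Rgs3 window had 48.4% and 3. Other starts of the same genes differed, with 56.8% and 7 at the other Rgs3 start and with 74.8% and 34 and 54.4% and 4 at the other Rgs19 starts. The Rgs10 window had 76.4% and 27. The median over all 32851 RefSeq promoters was 52.4% with 6 CpG. The Rgs2 window held 2 copies of the cAMP response element core, present at least once in 17.8% of all promoters, and the Rgs3 window held 1 TATA motif, present in 12.4%. None of these 4 windows held the full element (1.55% of all promoters) or the AP-1 motif (6.75%), and of the 4 the Rgs3 window alone held the E-box (2 copies, 66.2% of all promoters). A match describes the letters and is not a binding site.

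Every member was transcribed in every library. All 8 exceeded 1 TPM (transcripts scaled to gene length and library) in all 4 libraries, a level that 30.8% of the 37536 genes with a gene model reached. The members were chosen with earlier results of these data known, so this count does not describe the whole family. Of 12 further RGS genes, 2 reached that level. The median of the 8 members was 40.7 TPM, against 13.4 TPM over the 11974 genes of the variation test below that had a length. Levels are TPM computed from the deposited counts, as mean ± SD with n = 4, unless a library is named. The libraries held between 13777954 and 14629025 counts, and the 3 counts taken as the limit for an unseen gene equal 0.205 to 0.218 CPM (counts scaled to library size, without gene length). Mitochondrial and immunoglobulin genes together took 47.5 to 59.0% of all TPM, most in library 2 and least in library 3, which moves the TPM of other genes between libraries. Directions between libraries are therefore given where they held under each of 5 scalings, namely CPM, TPM, TMM-scaled CPM, counts over DESeq2 size factors, and TPM over totals without mitochondrial and immunoglobulin genes. Library 3 alone carried Y-linked RNA (Ddx3y at 1307 counts, at most 3 elsewhere) and nearly lacked Xist (6 counts, at least 8689 elsewhere), and sex and any other property of library 3 cannot be told apart. For the labelled cell type, all 8 GC markers were above 1 TPM in all 4 libraries, with a summed level of 1243 to 2087 TPM. The 8 markers of naive or memory B cells were all above 1 TPM too, summing to 1652 to 2957 TPM, as were the 6 plasma cell markers, summing to 955 to 2056 TPM.

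Rgs2 was the highest member. Its product prefers Gq among the G proteins, and the gene was first known as one that lymphocytes switch on early after stimulation. It gave 3391, 3751, 5961 and 5779 counts in libraries 1 to 4, or 145, 158, 279 and 251 TPM, with a mean of 208 ± 66.6 TPM. Of the 12468 genes with a length and a mean of at least 1 CPM, 97.2% lay below it. Libraries 3 and 4 stood above libraries 1 and 2, by all 5 scalings.

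Rgs1, which dampens chemokine receptor signals in B cells and is induced when they are activated, had 2677, 4015, 4369 and 4976 counts, or 59.8, 88.4, 107 and 113 TPM. The mean was 92.0 ± 23.8 TPM. Library 1 was lowest and library 4 highest by all 5 scalings, while libraries 2 and 3 changed places between scalings. Rgs1 and Rgs2 together made up 60.7% ± 8.83 of the summed TPM of the 8 genes, with 48.8%, 59.4%, 67.2% and 67.6% in libraries 1 to 4.

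**Figure D1:**
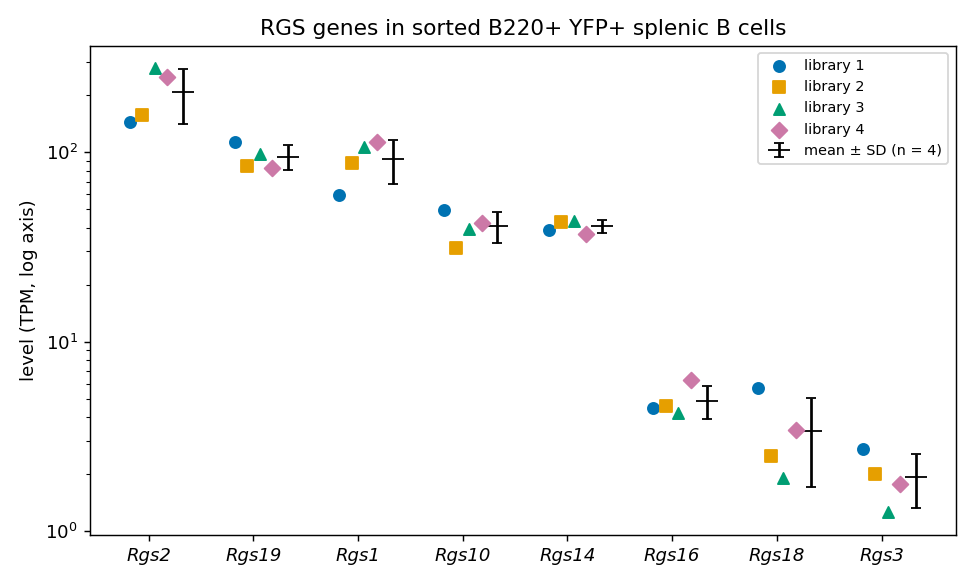
Levels of the 8 RGS genes in TPM (log axis), 1 symbol per library, with the mean ± SD of the 4 libraries as a bar. Rgs2 stands highest in each library, Rgs19 and Rgs1 follow at means of 94.99 and 91.97 TPM, and Rgs16, Rgs18 and Rgs3 stay below 10 TPM.

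The other members of that subfamily were far lower. Rgs16, which restrains chemokine signalling in lymphocytes through Gi and Gq, had 67, 70, 58 and 93 counts, or 4.45, 4.58, 4.20 and 6.28 TPM, with a mean of 4.88 ± 0.95 TPM. Rgs18, a regulator best known from megakaryocytes and platelets, had 75, 33, 23 and 44 counts, or 5.73, 2.48, 1.92 and 3.42 TPM, with a mean of 3.39 ± 1.68 TPM. Rgs3, which acts on Gi and Gq and is made in several protein forms, had 190, 141, 80 and 122 counts, or 2.73, 1.996, 1.26 and 1.78 TPM, with a mean of 1.94 ± 0.61 TPM. Both Rgs18 and Rgs3 were highest in library 1 and lowest in library 3 by all 5 scalings. Rgs16 was highest in library 4 and lowest in library 3 by all 5.

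Rgs10 and Rgs14 stood at nearly the same mean level. Rgs10, a short protein that acts on Gi, had 549, 349, 400 and 461 counts, or 49.8, 31.2, 39.6 and 42.5 TPM, with a mean of 40.8 ± 7.71 TPM. Rgs14, a larger protein that adds a GoLoco motif for inactive Gαi and Ras binding domains to its RGS domain, had 1060, 1195, 1092 and 999 counts, or 38.8, 43.1, 43.7 and 37.2 TPM, with a mean of 40.7 ± 3.18 TPM. Rgs14 varied least of all members, with a coefficient of variation of 9.36% in CPM. Rgs10 was highest in library 1 by all 5 scalings.

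Rgs19, whose product was first described as a partner of Gαi3 (GAIP), had 1634, 1242, 1286 and 1176 counts, or 114, 85.2, 97.8 and 83.2 TPM, with a mean of 94.99 ± 14.1 TPM. Library 1 was highest and library 4 lowest by all 5 scalings. Its share of the summed TPM was 27.1% in library 1, against 20.5%, 17.0% and 15.4% in libraries 2, 3 and 4. In library 1, where Rgs1 and Rgs2 were at their lowest, Rgs19 and Rgs10 were at their highest.

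The order of the members was examined within each library, as differences of log2(TPM + 1) between neighbours in the order of mean TPM. Rgs2 exceeded Rgs19 by 1.08 ± 0.58 in 4 of 4 libraries. Rgs19 and Rgs1 did not differ beyond their spread, at 0.08 ± 0.58, with Rgs19 higher in 1 of 4 libraries. Rgs1 exceeded Rgs10 by 1.13 ± 0.58 in 4 of 4 libraries, although by only 0.26 in library 1. With the longest transcript as length that step was 0.44 ± 0.59, within its spread, and 3 in place of 4 of the 7 pairs kept 1 direction in all libraries. Rgs10 and Rgs14 did not differ beyond their spread either, at -0.01 ± 0.36 with Rgs10 higher in 2 of 4. The widest step separated Rgs14 from Rgs16, at 2.84 ± 0.31 in 4 of 4 libraries. Rgs16 lay above Rgs18 by 0.48 ± 0.53, in 3 of 4 libraries, within the spread. Rgs18 lay above Rgs3 by 0.53 ± 0.29 in 4 of 4 libraries with the union of exons as gene length. The step between Rgs18 and Rgs3 turned round with another length, to -0.34 ± 0.24 with the longest transcript and -0.55 ± 0.24 with the principal transcript. An exact permutation that flips the sign of whole libraries (two-sided) gave p = 0.125 for each of the 4 steps seen in 4 of 4 libraries, the smallest p that 4 libraries allow, and 0.219 after Benjamini-Hochberg adjustment over 7 pairs (1 for Rgs19 and Rgs1 and for Rgs10 and Rgs14, and 0.35 for Rgs16 and Rgs18, both adjusted).

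The length chosen moved several levels. The annotated exons of Rgs1 add up to 6947 bases, its whole span, and those of Rgs3 to 10801 bases over 17 transcripts, against principal transcripts of 3841 and 3888 bases. With principal transcripts as length Rgs1 averaged 134 ± 33.6 TPM and Rgs19 113 ± 16.6 TPM. Rgs3 then averaged 4.37 ± 1.42 TPM, Rgs10 64.1 ± 11.9 TPM and Rgs14 59.2 ± 4.65 TPM. With the longest transcript Rgs1 averaged 94.6 ± 23.9 TPM, Rgs3 3.88 ± 1.25 TPM, Rgs10 68.7 ± 12.9 TPM and Rgs14 62.8 ± 4.84 TPM. Rgs2 moved little, to 201 ± 60.9 TPM with the principal and 216 ± 66.3 TPM with the longest transcript. Counts themselves gave Rgs1 282 ± 66.2 CPM and Rgs19 94.1 ± 15.0 CPM.

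Whether any member varied between libraries by more than genes of its level do was tested with edgeR's quasi-likelihood fit over 11982 genes, which sets a gene's quasi-dispersion against the trend for its level. All 8 members passed the filter on low counts. Of the 8 members, 0 passed at an adjusted p under 0.05 and 0 at an unadjusted p under 0.05, beside 0.00835% and 4.97% of all tested genes. With the robust option, limma-voom and DESeq2's dispersion outliers, 0 members were called as well, beside 0.526%, 0.00% and 1.33% of genes. Without library 2 the unadjusted p fell under 0.05 for Rgs1 and Rgs2 (2 of 8, against 4.56% of genes), and without library 3 for Rgs1 (1 of 8, against 4.95%), while without library 1 or library 4 it did so for 0 members. With no filter on low counts it did so for Rgs1, Rgs2, Rgs3 and Rgs18 (4 of 8, against 4.73%). Under none of these settings was an adjusted p of a member below 0.865. The edgeR test with all 4 libraries called only 1 of 11982 genes. Hspa1b, a heat shock gene with a 7.46-fold range in CPM between libraries, had an adjusted p of 0.236 in it. That 0 members passed therefore does not show that they were steady. The median member had a quasi-dispersion 2.66 times its trend, against 0.895 over all tested genes, a difference that was not tested. By value, Rgs1 was at 4.47 times its trend (unadjusted p = 0.0712, edgeR) and Rgs2 at 4.19 times (unadjusted p = 0.0795, edgeR), whereas Rgs14 was at 1.16 times and Rgs16 at 0.754 times. These ratios moved when single libraries were left out. Without library 1, Rgs1 was at 0.663 times its trend (unadjusted p = 0.558, edgeR), Rgs2 at 2.64 times (unadjusted p = 0.172, edgeR) and Rgs14 at 2.502 times. Without library 2, Rgs1 was at 8.12 times, Rgs2 at 6.95 times and Rgs14 at 0.175 times. Rgs18 was at 1.56 times without library 1 and Rgs3 at 1.32 times without library 3, against 3.48 and 3.47 times with all 4 libraries. Differences between members in these ratios were not tested. The adjusted p was 0.990 for all 8. In these bulk samples, fewer cells of a type and less RNA per cell cannot be told apart.

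**Figure D2:**
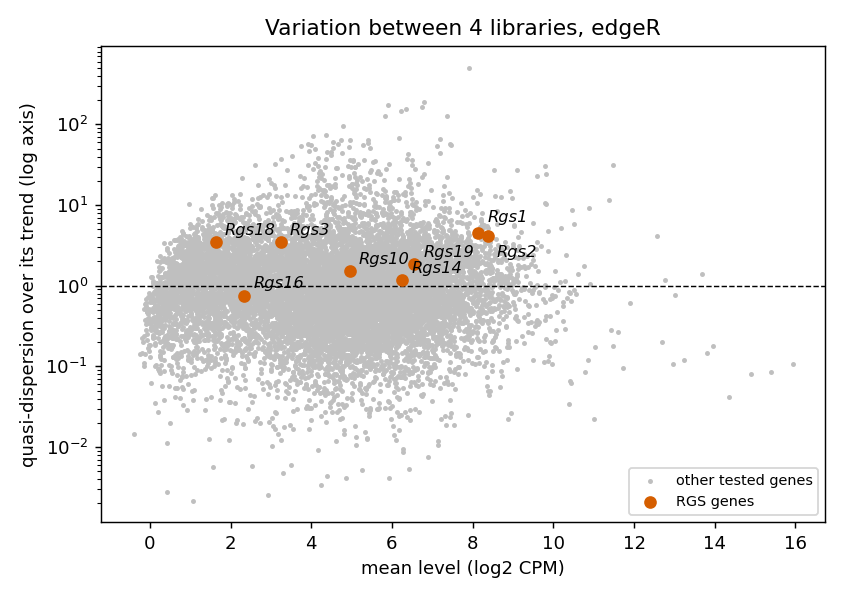
Ratio of quasi-dispersion to trend (log axis), 1 point per gene, against its mean level in log2 CPM for the 11982 genes tested, with the RGS genes in orange. Rgs1, Rgs2, Rgs18 and Rgs3 lie above more than 90.1% of all tested genes, and Rgs16 lies below the line at 1.

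Counting error was a small part of the spread for the abundant members. Rgs2 had a coefficient of variation of 26.3% between libraries, where counting alone would give 1.46%, and Rgs1 had 23.5%, where counting would give 1.58%. For Rgs19 the values were 15.9% and 2.74%, and for Rgs10 19.6% and 4.77%. For the sparse members counting weighed more. Rgs16 had 20.9% with 11.8% from counting, Rgs3 35.5% with 8.66%, and Rgs18 52.1% with 15.1%. The counting figures treat each read as a separate molecule, which reads lacking molecular identifiers need not be.

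**Figure D3:**
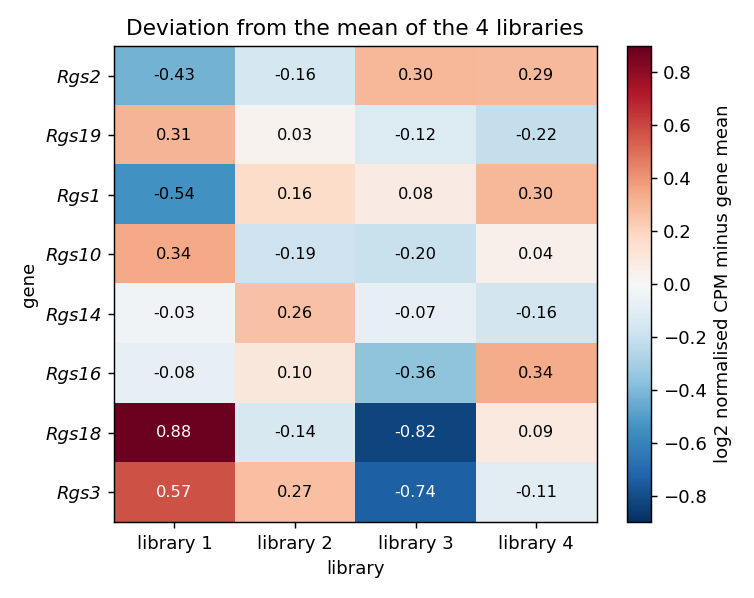
Deviation of each RGS gene from its own mean over the 4 libraries, in log2 TMM-normalised CPM, with genes in rows and libraries in columns. Rgs18 and Rgs3 are high in library 1 (0.88 and 0.57) and low in library 3 (-0.82 and -0.74), while Rgs2 and Rgs1 are low in library 1 (-0.43 and -0.54).

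On the log2 scale of normalised CPM, Rgs18 had the largest SD of the members (0.70), followed by Rgs3 (0.57), Rgs1 (0.37) and Rgs2 (0.36), and Rgs14 the smallest (0.19). The median member had 0.33 and the median tested gene 0.22. Among tested genes of the lists described below, the median was 0.37 for other RGS genes, 0.37 for receptors and 0.40 for receptor kinases and arrestins. It was 0.23 for Gα genes, 0.24 for Gβ and Gγ genes, 0.17 for other regulators and 0.16 for effectors. Differences between these medians were not tested. The closest pairs of members, by the root mean square difference of their centred log2 levels over the 4 libraries, were Rgs10 and Rgs19 (0.17) and Rgs1 and Rgs2 (0.20). Such closeness was common in 4 libraries, since 1629 tested genes lay closer to Rgs10 than Rgs19 did and 852 closer to Rgs1 than Rgs2 did. Rgs3 lay 0.28 from Rgs18, with 199 genes closer to Rgs18.

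Among all tested genes, those most like Rgs18 were Cebpa, a myeloid transcription factor gene (0.05), Ccnd1, the gene of cyclin D1 (0.07), and Ubash3a, a regulator of T cell receptor signalling (0.08), with 9 genes within 0.1. Rgs18 had only 23 to 75 counts a library, where counting alone would give a coefficient of variation of 15.1%. Counting error at that depth could change which genes come nearest. Cebpa itself was at 4.12, 1.74, 1.09 and 2.38 CPM in libraries 1 to 4, beside 5.32, 2.40, 1.57 and 3.08 CPM for Rgs18. Most like Rgs2 were Stk38l, a kinase gene (0.03), Pim1, a cytokine-induced survival kinase gene (0.03), and Nmnat3, an enzyme gene of NAD synthesis (0.03), with 137 genes within 0.1. Pim1 was at 234, 265, 378 and 379 CPM, beside 241, 272, 407 and 404 CPM for Rgs2.

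Markers of other blood cells were set beside Rgs18 and Rgs3. The 6 platelet and megakaryocyte markers summed to 69.1, 19.8, 11.7 and 23.1 TPM in libraries 1 to 4, and 2 of 6 exceeded 1 TPM in all libraries. The defining genes Pf4 and Itga2b stood at 6.68, 2.76, 0.470 and 5.03 TPM and at 6.26, 2.02, 2.08 and 3.10 TPM. The 9 T cell markers, all above 1 TPM in all libraries, summed to 470, 208, 181 and 393 TPM, and the 6 NK cell markers to 115, 52.0, 51.5 and 105 TPM. The 6 neutrophil markers ran from 136 to 324 TPM, highest in library 4, the 7 macrophage and monocyte markers from 98.4 to 197 TPM, highest in library 1, the 6 dendritic cell markers from 23.0 to 32.9 TPM, and the 6 erythroid markers from 98.0 to 269 TPM, highest in library 4. At an unadjusted p under 0.05 in the edgeR test, reached by 4.97% of all tested genes, stood 9 of 9 T cell, 2 of 6 NK cell, 4 of 5 neutrophil, 2 of 2 platelet, 1 of 6 macrophage, 2 of 5 erythroid and 0 of 4 dendritic cell markers that entered the test, and 0 passed after adjustment. No marker of these lists was at 0 counts in all libraries. B lineage markers summed to 4843 to 6579 TPM, highest in library 3 in TPM and in CPM but in library 2 by the other 3 scalings. Plasma cell markers summed to 2056, 1810, 955 and 1858 TPM in libraries 1 to 4, highest in library 1 and lowest in library 3 by all 5 scalings. In the same edgeR test, 3 of 5 plasma cell, 3 of 8 GC, 3 of 8 naive or memory B and 0 of 7 B lineage markers had an unadjusted p under 0.05. After adjustment 0 of these passed. The part of any of these cell types in the level of Rgs18 or of Rgs3, both highest in library 1 and lowest in library 3, was not tested.

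**Figure D4:**
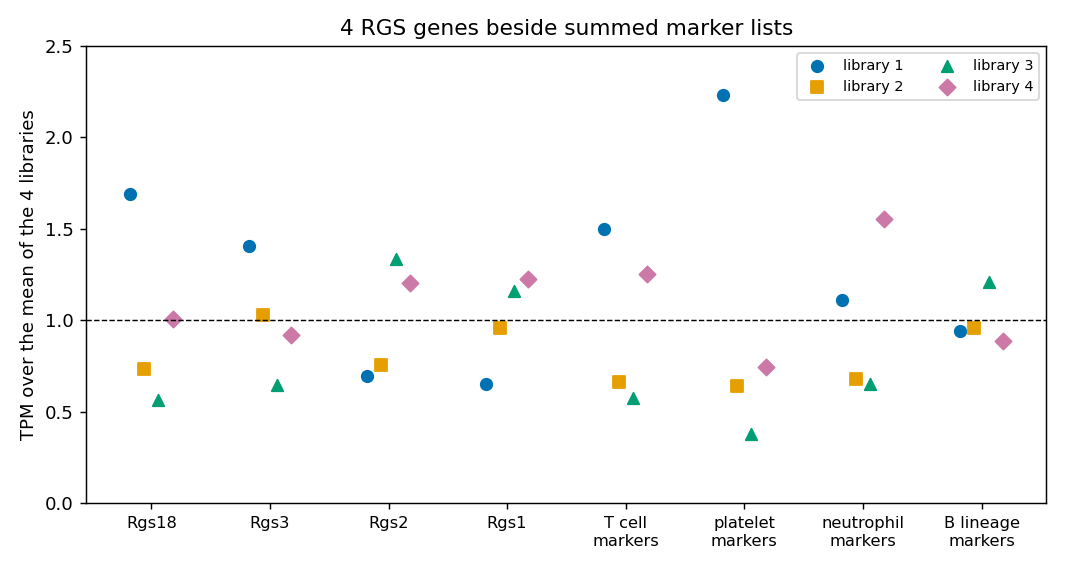
TPM of 4 RGS genes and summed TPM of 4 marker lists in each library, divided by the mean over the 4 libraries. Rgs18 and Rgs3 share their highest (library 1) and lowest (library 3) libraries with the T cell and platelet markers, Rgs2 and Rgs1 are lowest in library 1, and B lineage markers stay between 0.889 and 1.21. Plasma cell and NK cell markers, not drawn here, had the same highest and lowest libraries.

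Immediate early genes were looked at beside Rgs1 and Rgs2, since both of these are induced by activation. The 17 immediate early and stress genes were all above 1 TPM in all libraries and summed to 5499, 9143, 4139 and 5789 TPM in libraries 1 to 4. The highest were Junb (1119 ± 276 TPM), Jund (968 ± 236 TPM) and Fos (836 ± 488 TPM), transcription factor genes of the AP-1 group, and the lowest was Ier3 (3.43 ± 0.865 TPM). Fos was lowest in library 3, at 338 TPM, where Rgs2 was at 279 TPM, and highest in library 2, at 1496 TPM, where Rgs2 was at 158 TPM. Like Fos, the genes Jun, Junb, Jund, Egr1, Zfp36, Dusp1, Ier2 and Btg2 were highest in library 2 and lowest in library 3 in TPM. Fosb and Klf6 were also highest in library 2. Hspa1a, Hspa1b and Ier3 were highest in library 1 in TPM. Atf3 was lowest in library 1 and highest in library 4 in TPM, at 11.8, 47.4, 34.3 and 53.7 in libraries 1 to 4. Nr4a1, a nuclear receptor gene switched on by antigen receptor signals, did not follow Fos either. It stood at 134, 241, 320 and 319 TPM, lower in libraries 1 and 2 than in libraries 3 and 4, as Rgs2 was in TPM. Egr2 did likewise in TPM, at 20.5, 36.1, 45.3 and 41.6, and in CPM, at 31.8, 58.3, 62.1 and 62.6. In TMM-scaled CPM its library 2 was not below libraries 3 and 4, so that direction depended on the scaling. Of the 17 genes, 15 had an unadjusted p under 0.05 in the edgeR test, beside 4.97% of all tested genes, and 0 an adjusted p under 0.05. The part of immediate early induction in the levels of Rgs1 and Rgs2 was not tested.

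Of the rest of the family, 12 further RGS genes were measured and most were near the limit of detection. Their median was 0.0516 TPM and only 2 of 12 exceeded 1 TPM in all libraries. Rgs9 stood at 4.69 ± 1.10 TPM, Rgs12 at 1.65 ± 0.541 TPM and Rgs11 at 1.57 ± 0.256 TPM. Rgs9 and Rgs11 belong to the subfamily that requires the Gβ5 subunit, and its gene Gnb5 was at 0.949 ± 0.285 TPM. Rgs6 had a single count in 1 library, which made it the lowest gene with any count. Rgs21, which lies between Rgs1 and Rgs18, had 0 counts in all 4 libraries, which allows up to 0.205 to 0.218 CPM. Of these 12 genes 3 entered the variation test, and 0 had an unadjusted p under 0.05.

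The Gα genes were led by a gene of the Gi class. Gnai2, the main Gαi of lymphocytes, stood at 483 ± 79.5 TPM, Gna13, the Gα13 that confines GC cells, at 75.3 ± 19.3 TPM, and Gnai3, the partner of Rgs19, at 61.4 ± 10.97 TPM. Of 13 Gα genes 9 exceeded 1 TPM in all libraries, with a median of 14.0 TPM, and Gnai1 was the lowest (0.0378 ± 0.0755 TPM). Gna15, the Gq class gene of blood cells, was at 8.80 ± 1.27 TPM and Gnaq at 11.3 ± 1.72 TPM. Among 14 Gβ and Gγ genes the highest were Gnb2 (180 ± 21.7 TPM), Gnb1 (147 ± 33.2 TPM) and Gng2 (21.4 ± 2.18 TPM), the lowest was Gng8 (0.0251 ± 0.0502 TPM), and Gnb3 was at 1.28 ± 0.437 TPM. In this list 9 of 14 exceeded 1 TPM in all libraries.

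Receptors and other regulators of their signals were also transcribed. All 18 genes of a chosen list of G protein coupled receptors of B cells exceeded 1 TPM in all libraries, as 30.8% of genes with a gene model did. The list was drawn up with earlier results of these data known, so this count does not describe such receptors at large. Its median was 44.5 TPM. Cxcr4 (334 ± 61.1 TPM), Ccr7 (174 ± 35.02 TPM) and Cxcr5 (159 ± 28.7 TPM) led it, and P2ry12 was lowest (1.97 ± 0.372 TPM). The receptor kinase genes Grk2 (493 ± 75.9 TPM) and Grk6 (224 ± 37.5 TPM) and the β-arrestin 2 gene Arrb2 (66.9 ± 5.37 TPM) led 7 receptor kinases and arrestins, of which 5 exceeded 1 TPM in all libraries, down to Grk4 (0.653 ± 0.149 TPM). Of 13 other regulators 12 exceeded 1 TPM in all libraries, led by Arhgef1 (423 ± 80.1 TPM), whose product carries an RGS-like domain, Gpsm3 (201 ± 28.8 TPM), a GoLoco protein gene, and Axin1 (54.9 ± 6.83 TPM), with Axin2 lowest (1.57 ± 1.14 TPM). Of 13 effectors 10 did so, led by Rac2 (728 ± 114 TPM), Dock2 (95.1 ± 8.36 TPM) and Adcy7 (61.4 ± 11.1 TPM), down to Plcb1 (0.0316 ± 0.0402 TPM). Plcb3 was at 6.57 ± 1.16 TPM and Pik3r6 at 3.98 ± 2.69 TPM. In the edgeR test 3 of 18 receptors, 1 of 13 other regulators and 3 of 10 tested effectors had an unadjusted p under 0.05, beside 4.97% of all tested genes, and 0 genes of these lists, the Gα, Gβ and Gγ genes or the kinases an adjusted p under 0.05.

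**Figure D5:**
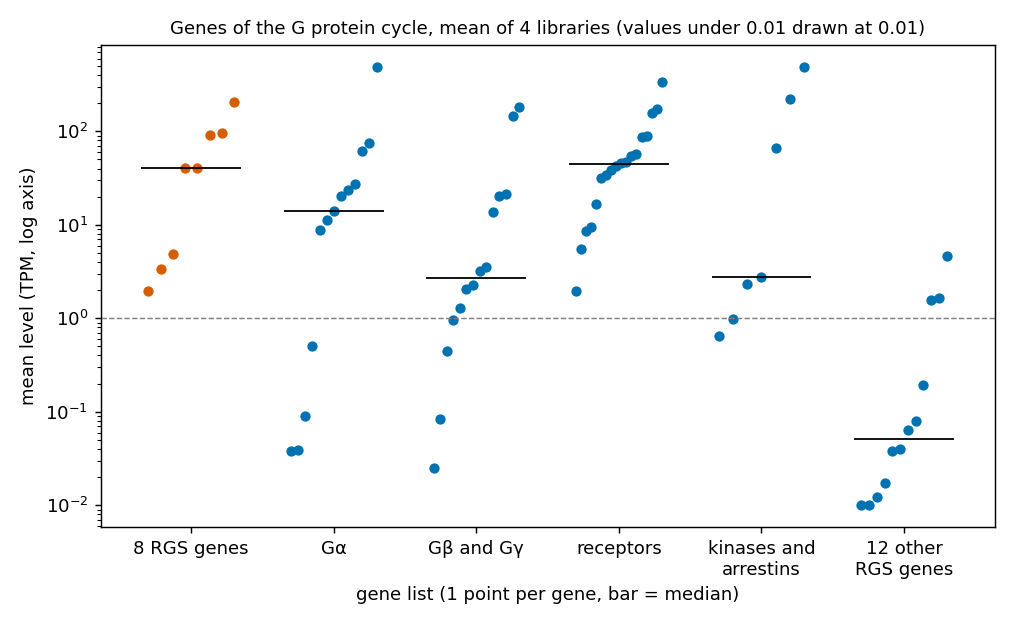
Mean level of each gene over the 4 libraries in TPM (log axis), by gene list, with 1 point per gene and a bar at the list's median. The 8 RGS genes (orange) have a median of 40.7 TPM, near the receptors at 44.5 TPM, and the 12 other RGS genes one of 0.0516 TPM. Members and lists were chosen with earlier results of these data known. The gap between the sets of RGS genes may reflect that choice and was not tested. Values under 0.01 TPM are drawn at 0.01.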

How the data were processed

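The authors deposited 1 table of whole-number read counts per gene for each of 4 libraries, not normalised. The submitters' processing notes name FastQC, STAR 2.5.2b and featureCounts 1.6.0, with mm10 as build. The annotation release, whether counting used strand, and how reads matching several places were handled are not given in the sources used here. Library totals lay between 13777954 and 14629025 counts.

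TPM was computed from the counts and the union of exons of each gene in GENCODE M21 (GRCm38, named mm10), matched by identifier without version, and 110 of 37646 genes had no match. For variation between libraries, edgeR 4.0.16 was used (filterByExpr, TMM, intercept-only glmQLFit, legacy = FALSE, R 4.3.3), the ratio of quasi-dispersion to trend being read off the F distribution, with Benjamini-Hochberg adjustment and a threshold of 0.05. limma 3.58.1 and DESeq2 1.42.0 were alternatives. Neighbours in level were compared as log2(TPM + 1). Levels and permutations were computed in Python 3.11.15, and neighbour pairs were adjusted with scipy 1.17.1.

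Members and lists were chosen with earlier results of these data known. Of each pathway list the 3 highest genes, the lowest measured gene and any gene with a library far from the others are named. Gnb5, Gnaq, Nr4a1, Rgs21, Pf4 and Itga2b fall outside that rule and were chosen after their values were seen. The same holds for Jun, Fosb, Zfp36, Dusp1, Ier2, Btg2, Klf6, Egr2, Atf3, Hspa1a and Hspa1b. Marker lists are otherwise given by their sums. For the member with the largest SD and the highest member, the 3 tested genes of nearest pattern are named. Not every gene of the family is reported here.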

Additional observations from a re-analysis of the deposited data

Results flagged for a closer look

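In each gene and list sum with 4 libraries, the gap between the most distant library and the nearest other was set against the whole range. Of 192 such groups 10 stood out, and chance flags about 1 in 20. None was a level or a share of the 8 RGS genes. Among genes that RGS proteins act with, Gna15 was low in library 1 (6.91 TPM, 9.24 to 9.68 in the others). Effector or subunit genes were high in library 3: Gnb3 (1.93 TPM, 1.003 to 1.104 in the others), Adcy7 (77.9 TPM, 54.7 to 57.2) and Plcb3 (8.31 TPM, 5.801 to 6.136). Fas, the death receptor gene among the GC markers, was also high there (99.1 TPM, 69.9 to 73.6 in the others). Library 2 stood apart in Pik3r6 (7.98 TPM, 2.153 to 3.001 in the others) and in Egr1 (515 TPM, 152 to 213). The platelet gene Ppbp was high in library 1 (41.9 TPM, 7.513 to 11.01 in the others). Erythroid RNA was high in library 4, in Hbb-bs (122 TPM, 31.7 to 36.4 in the others) and in the sum of the erythroid markers (269 TPM, 98.0 to 106). All of these values are TPM. Under the other 4 scalings, compared after seeing the data, Ppbp, Hbb-bs and the erythroid sum stood apart in each, and Pik3r6 in 2 of 4. Gna15, Gnb3, Adcy7, Plcb3, Fas and Egr1 stood apart under 0 of 4. The sum of the G protein effectors, not flagged in TPM, was high in library 1 and stood apart under several of these scalings. Its gap took 0.837 of the range in TMM-scaled CPM and 0.839 in counts over DESeq2 size factors. It took 0.933 in TPM over totals without mitochondrial and immunoglobulin genes, but 0.599 in CPM, where the sum did not stand apart. Over totals without mitochondrial and immunoglobulin genes, Adcy7 was at 123, 136, 148 and 121 TPM in libraries 1 to 4, Fas at 166, 173, 189 and 148 TPM, and Gna15 at 15.6, 22.6, 17.8 and 20.5 TPM.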

How the results depend on the processing

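That 0 of the 8 RGS genes passed the variation test, and that all 8 exceeded the level of 1 in all libraries, held under every alternative run. For the level, some runs could not have given a lower count. These are the runs with 1 library left out and the run over totals without mitochondrial and immunoglobulin genes, so they do not test it. The count of all genes passing, 1 in edgeR's quasi-likelihood test, was 262 with no filter on low counts, 63 with the robust option, 0 with limma-voom and 159 as DESeq2 dispersion outliers, and it ran from 0 to 19 with 1 library left out (0 without library 2, 19 without library 3, 3 without library 4). The cause was not tested. Of 7 neighbour pairs 4 kept 1 direction in all libraries. The count was 3 with the longest transcript, 6 in CPM, and 4 to 6 with 1 library left out (6 without library 1). Leaving out a library can only keep or raise this count, so those runs do not test it. Rgs18 minus Rgs3 reversed, to -0.34 with the longest transcript as length, -0.55 with the principal transcript (a length chosen after seeing the data) and -1.37 in CPM. By construction these settings differ only in length. TPM over totals without mitochondrial and immunoglobulin genes was higher by 0.93 to 1.29 on the log2 scale in each library, for all genes alike. Rgs18 rests on 23 to 75 counts a library, so differences between libraries are limited by depth there. No paired analysis was possible because there is only 1 group.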
